A study of Mus musculus with 14 samples.

Results

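The 10 genes described here encode the heat shock proteins of the cytosol and of the mitochondrial matrix that are most often measured: the inducible Hsp70 genes Hspa1a and Hspa1b, the constitutive Hsp70 gene Hspa8, the Hsp110 gene Hsph1, the Hsp40 gene Dnajb1, the Hsp90 genes Hsp90aa1 and Hsp90ab1, the small heat shock gene Hspb1, and the mitochondrial chaperonin genes Hspd1 and Hspe1. They were chosen by name among the 37680 genes of the count table. All 10 passed the filter on low counts, a minimum of 10 counts in 3 or more libraries, which left 15127 genes for the tests.

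RNA-seq was performed on colon epithelium that was separated from the mesenchyme with EDTA in the cold, from mice of 8 to 14 wk. Wild type (WT) and Smad4 knockout (Smad4 KO) mice drank water (4 and 4 libraries) or 2.5% DSS for 3 d (3 and 3 libraries). The study's figure legends for these RNA data give 4 replicates for WT on water and 3 for each other group. Which of the 4 libraries labelled Smad4 KO on water the study used is not stated there. DSS, dextran sulphate sodium, is a polysaccharide that injures the colonic mucosa. The Smad4 KO mice carried floxed Smad4 (Smad4 f/f) and Villin-CreERT2, a Cre under an epithelial promoter that was activated by tamoxifen on 4 consecutive days, a design that removes Smad4 in the intestinal epithelium and spares other cells. The study's methods bring the Cre transgene into controls as well as conditional mutants. Whether the WT mice sequenced here carried it, floxed Smad4 or had tamoxifen was not established here. The labels number the replicates but do not say that each came from a separate mouse, so the p-values measure the spread between these libraries.

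Total counts ran from 12882827 to 26087231 per library, and the mitochondrial genome held 4.05% to 32.8% of them. All 10 markers of colon epithelium were present, with a summed level of 13147 to 21286 CPM (counts per 1000000, scaled with the TMM factors of edgeR), against 6.19 to 35.9 CPM for 7 fibroblast markers. Smad4 was at 118 to 159 CPM in WT on water, at 35.1 to 46.8 CPM in Smad4 KO water replicates 2 to 4, at 170.2 to 182 CPM in WT after DSS and at 40.4 to 43.9 CPM in Smad4 KO after DSS. The other library labelled Smad4 KO on water, replicate 1, had 158 CPM, which goes against its label. It was kept in its labelled group, and the main values of that group's comparisons are also given without it. Each value below for a whole tissue preparation cannot tell fewer cells of a type from less RNA per cell.

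Heat shock genes are transcribed at a low or moderate rate in unstressed cells and rise within minutes to hours of heat or other stress that unfolds proteins. The transcription factor HSF1 is then released from chaperones, forms trimers and binds heat shock elements, which are inverted repeats of the unit GAA in the promoter. Hsp70 proteins hold unfolded chains and are driven by Hsp40 (J-domain) partners and by nucleotide exchange factors such as Hsp110, Hsp90 proteins mature kinases and steroid receptors, and Hsp60 with its lid Hsp10 folds proteins in the mitochondrial matrix.

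Promoter sequences were taken from RefSeq (GRCm38.p6), from 250 bases before to 50 bases after each start site, for the 7 members that had an entry. Entries for Hspa8, Hsp90aa1 and Hsp90ab1 were not analysed here. The promoters of Hspa1a, Hspa1b, Hsph1 and Hspe1 are shown because the first 3 are the members that 1 library held at 2-fold or more over the median of the others, and because Hspe1 shares its promoter with Hspd1. They are on chromosome 17 from 34972107 to 34972406, on chromosome 17 from 34959189 to 34959488, on chromosome 5 from 149636287 to 149636586 (all on the minus strand) and on chromosome 1 from 55087898 to 55088197 (plus strand). Each is written 5′ to 3′ on the strand of the gene, with matches to GAANNTTC or TTCNNGAA in capitals.
Hspa1a: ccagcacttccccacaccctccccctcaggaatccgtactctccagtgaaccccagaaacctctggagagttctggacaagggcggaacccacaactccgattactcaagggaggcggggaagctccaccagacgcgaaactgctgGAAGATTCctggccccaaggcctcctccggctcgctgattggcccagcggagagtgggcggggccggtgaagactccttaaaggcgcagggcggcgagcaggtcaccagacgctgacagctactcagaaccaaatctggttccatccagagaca
Hspa1b: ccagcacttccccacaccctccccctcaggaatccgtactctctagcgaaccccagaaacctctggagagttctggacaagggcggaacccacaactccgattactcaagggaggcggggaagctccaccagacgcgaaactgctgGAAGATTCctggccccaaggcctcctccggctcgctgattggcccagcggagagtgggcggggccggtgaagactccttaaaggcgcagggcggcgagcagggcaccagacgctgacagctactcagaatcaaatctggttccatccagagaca
Hsph1: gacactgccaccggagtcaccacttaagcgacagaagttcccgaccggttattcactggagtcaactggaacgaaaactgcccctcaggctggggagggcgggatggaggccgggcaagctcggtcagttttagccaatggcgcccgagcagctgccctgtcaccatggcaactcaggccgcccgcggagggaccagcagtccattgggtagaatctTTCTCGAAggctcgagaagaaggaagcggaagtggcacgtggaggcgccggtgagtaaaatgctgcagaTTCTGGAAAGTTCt
Hspe1: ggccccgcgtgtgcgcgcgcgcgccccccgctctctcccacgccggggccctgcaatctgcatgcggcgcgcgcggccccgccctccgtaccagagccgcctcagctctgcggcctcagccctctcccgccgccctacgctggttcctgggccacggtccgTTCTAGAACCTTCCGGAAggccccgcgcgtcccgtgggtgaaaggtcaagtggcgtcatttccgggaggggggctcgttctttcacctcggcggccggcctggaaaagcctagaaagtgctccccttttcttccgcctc

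The promoters of Hspa1a and Hspa1b differed at 4 of 300 bases, and each held GAANNTTC from 104 bases before the start site. Hspe1 held 3 overlapping matches from 89, 84 and 79 bases before its start site. Its promoter shared 285 bases with the second Hspd1 entry, since both genes start in opposite directions from the same stretch of DNA. Hsph1 had a match 33 bases before the start site and 2 overlapping matches after it. In all, 6 of the 7 members had at least 1 of the 2 motifs in an entry, and Dnajb1 had none in either of its 2 entries. The first Hspd1 entry had none either. Both motifs read the same on the other strand, and either was found in 15.1% of all 32851 promoters of this length. GAANNTTC was in 7.86% and TTCNNGAA in 8.52%. A run of 3 alternating units was present in Hsph1, Hspd1 and Hspe1 and in 0.603% of all promoters. These shares are of promoter entries, whereas a member was counted if any of its entries had a match. These matches describe letters in a window and no binding was measured.

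Per kilobase of exon, the members covered about 3 orders of magnitude. Levels were computed as CPM divided by the length of all exons of the gene in GENCODE M1 (mm9). Hsp90ab1, the constitutive cytosolic Hsp90, was highest, with a median over the 14 libraries of 444 CPM per kb (326 to 530.0). Hspa8, the constitutive Hsp70 or Hsc70, followed at 383 CPM per kb (302 to 540) and its range overlapped that of Hsp90ab1. The mitochondrial chaperonin gene Hspd1 (Hsp60) had 126 CPM per kb (98.8 to 189), and its partner Hspe1 (Hsp10) had 81.4 CPM per kb (46.2 to 112). The inducible Hsp90 gene Hsp90aa1 had 63.1 CPM per kb (46.5 to 87.1), so that Hspd1, Hspe1 and Hsp90aa1 each overlapped the next in this order. Dnajb1, whose product is the Hsp40 that feeds substrates to Hsp70, had 22.1 CPM per kb (15.4 to 31.5), and Hsph1 had 5.61 CPM per kb (3.54 to 14.3). Hspa1b had 2.45 CPM per kb (1.51 to 21.8), Hspb1 0.742 CPM per kb (0 to 2.05) and Hspa1a 0.448 CPM per kb (0.187 to 6.55). The 3 lowest genes overlapped each other over the libraries, and Hspa1a and Hspa1b, but not Hspb1, also reached into the range of Hsph1. For Hspa1a, Hspa1b, Hspb1, Hspa8, Hspe1 and Hsp90aa1, 69.3% to 87.9% of the transcript is near-identical to sequence elsewhere in mm9. How reads shared with such sequence were counted is not given in the sources used here. Its part in the order and span of the levels was not tested.

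The genes with the highest levels varied least. Between the lowest and the highest library, Hspa1a differed 35.0-fold, Hspa1b 14.5-fold and Hsph1 4.03-fold in CPM. Hspe1 differed 2.43-fold, Dnajb1 2.05-fold, Hspd1 1.91-fold, Hsp90aa1 1.88-fold, Hspa8 1.79-fold and Hsp90ab1 1.62-fold. Hspb1 ran from 0 to 2.11 CPM, with 0.230 CPM as the lowest level above 0, and has no such fold because 1 library had no count.

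**Figure D1:**
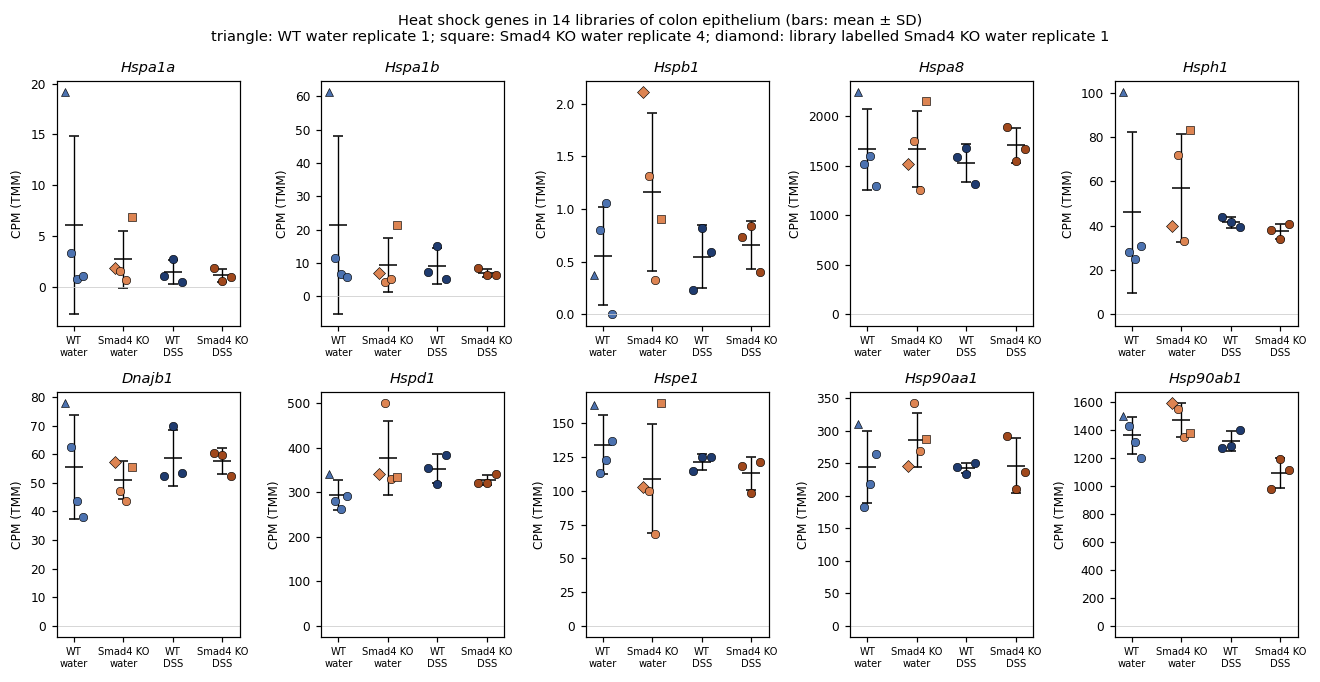
CPM (linear axes from 0) of each of the 10 genes in the 14 libraries, 1 panel per gene, with the 4 groups on the x axis, each point a library and the bars the mean ± SD (n = 4, 4, 3 and 3). WT water replicate 1 (triangle) lies far above the rest for Hspa1a (19.2 CPM), Hspa1b (61.2 CPM) and Hsph1 (100.4 CPM). The square is Smad4 KO water replicate 4 and the diamond is the library labelled Smad4 KO water 1.

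Hspa1a and Hspa1b are intronless neighbours on the minus strand of chromosome 17 of mm9, at 35106144 to 35109069 (ENSMUSG00000091971) and 35093381 to 35096183 (ENSMUSG00000090877), with 9960 bases between them. They encode nearly the same inducible Hsp70 protein. Of the Hspa1a transcript, 74% lies in stretches of at least 150 bases that match Hspa1b at 99% identity or more, and 78.5% of Hspa1b matches Hspa1a in the same way. How the counting treated reads that map to both is not given in the sources used here, so the split of counts between the 2 genes is uncertain.

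Hspa1b was at 61.2, 11.6, 6.68 and 5.67 CPM in WT water replicates 1 to 4 and at 7.04, 4.23, 5.14 and 21.4 CPM in the libraries labelled Smad4 KO water 1 to 4. After DSS it was at 7.12, 15.2 and 5.09 CPM in WT and at 8.37, 6.499 and 6.29 CPM in Smad4 KO. Only WT water replicate 1 and, less far, Smad4 KO water replicate 4 left the range of 4.23 to 15.2 CPM in which the other 12 libraries lay, and the groups overlapped.

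Hspa1a was at 19.2, 3.37, 0.814 and 1.07 CPM in WT on water, from 518, 76, 10 and 10 counts. In the libraries labelled Smad4 KO water 1 to 4 it was at 1.85, 1.55, 0.658 and 6.90 CPM. After DSS it was at 1.06, 2.79 and 0.547 CPM in WT and at 1.88, 0.640 and 1.01 CPM in Smad4 KO. The order of the libraries was much the same as for Hspa1b, with WT water replicate 1 highest, Smad4 KO water replicate 4 second and WT water replicate 2 and WT DSS replicate 2 above most others. Over the 14 libraries the 2 genes had r = 0.94 (log2 CPM), and 0.87 over the 13 without WT water replicate 1, as a description of libraries that share normalization and reads. The ratio of Hspa1b to Hspa1a counts lay between 2.73 and 10.2 and was 3.20 in WT water replicate 1.

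**Figure D2:**
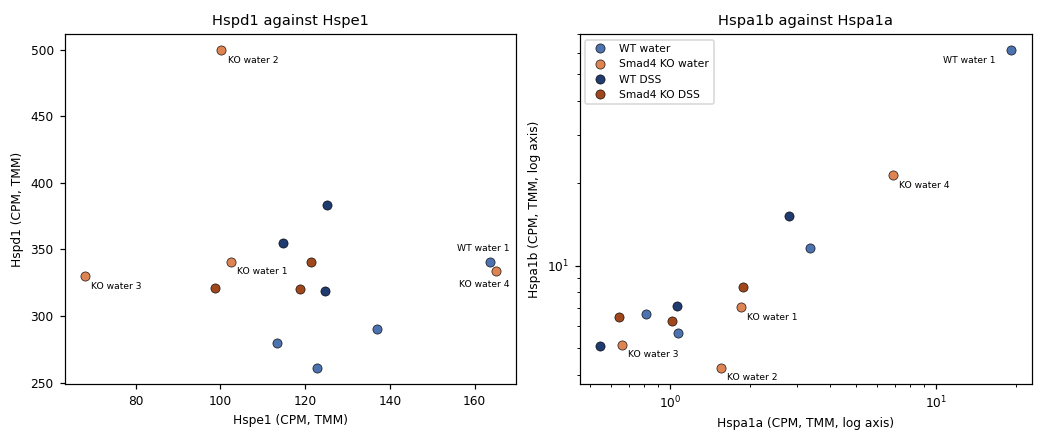
Hspd1 against Hspe1 (CPM, linear axes) and Hspa1b against Hspa1a (CPM, logarithmic axes), each point a library coloured by group. Hspa1a and Hspa1b rise together over the libraries (r = 0.94 over 14), whereas the Hspd1 to Hspe1 count ratio runs from 2.02 to 4.98.

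WT water replicate 1 was the highest of the 14 libraries for 5 of the 10 genes, Hspa1a, Hspa1b, Hspa8, Hsph1 and Dnajb1, and the second highest for Hspe1 and Hsp90aa1. Among the 11566 tested genes with a mean of at least 50 counts it was highest for 434, or 3.75%. Against the median of the other 13 libraries it was 17.9-fold higher for Hspa1a, 9.17-fold for Hspa1b and 2.55-fold for Hsph1, and 148 of these 11566 genes (1.28%) were at least 2-fold higher there. The remaining values were 1.45 for Dnajb1, 1.41 for Hspa8, 1.38 for Hspe1, 1.26 for Hsp90aa1, 1.14 for Hsp90ab1 and 1.03 for Hspd1. Hspb1 was at 0.464 of that median. The library is 1 sample and has no replicate of its own, so these ratios carry no test.

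Cell type markers in this library were near the median of the others, apart from those of lymphoid cells, which were higher, and of fibroblasts, which were somewhat lower. It was the deepest library, with 26087231 counts, and had 8.23% mitochondrial counts. Its summed marker levels were 17927 CPM for epithelium (median of the other 13 libraries 17343), 9.95 CPM for fibroblasts (12.1), 16.7 CPM for smooth muscle (18.3), 5.40 CPM for endothelium (5.61, with Cdh5 at 0), 72.4 CPM for myeloid cells (70.5), 19.8 CPM for lymphoid cells (13.6) and 1.41 CPM for glia and neurons (1.28, with S100b and Sox10 at 0). Of 12 early response genes, such as Fos, Jun and Egr1, it was highest for 1, Atf3, with 36.7 CPM against a median of 24.6 in the others, and the second highest for Fosb, with 4.92 CPM against 1.88. The part of depth and cell content in the heat shock values was not tested.

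Smad4 KO water replicate 4 was the highest library for Hspe1 and the second highest for Hspa1a, Hspa1b, Hspa8 and Hsph1. It had 21.4% mitochondrial counts and the highest summed levels of fibroblast (35.9 CPM), myeloid (121 CPM) and lymphoid (28.5 CPM) markers of the 14 libraries. Their part in its heat shock values was not tested.

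**Figure D3:**
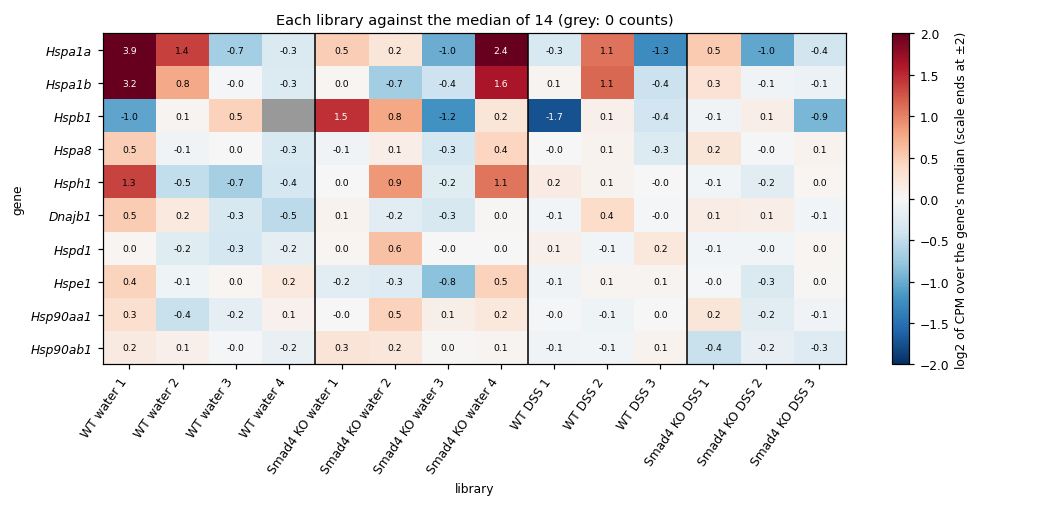
log2 of each gene's CPM over its median in the 14 libraries, genes in rows and libraries in columns, with 0 counts in grey. WT water replicate 1 and Smad4 KO water replicate 4 are the columns in which Hspa1a, Hspa1b, Hspa8 and Hsph1 all lie first or second of 14.

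Hsph1 lies on the minus strand of chromosome 5 from 150416862 to 150438951 (ENSMUSG00000029657) and encodes Hsp105, an Hsp110 protein that exchanges the nucleotide of Hsp70 and prevents aggregation. It was at 100.4, 28.2, 24.9 and 30.9 CPM in WT water replicates 1 to 4 and at 39.7, 71.9, 33.4 and 83.0 CPM in the libraries labelled Smad4 KO water 1 to 4. After DSS it was at 44.0, 41.5 and 39.3 CPM in WT and at 38.1, 34.0 and 40.8 CPM in Smad4 KO. The water groups spread widely, the DSS groups lay between 34.0 and 44.0 CPM, and all groups overlapped. WT on water overlapped the other groups only through replicate 1. Its other libraries (24.9 to 30.9 CPM) lay below every library of those groups.

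On water, the log2 fold change of Hsph1 in Smad4 KO against WT was 0.30 (SE 0.38, edgeR adjusted p = 0.638), and 0.44 with the library labelled Smad4 KO water 1 left out (edgeR adjusted p = 0.51). Without WT water replicate 1 it was 1.02 (SE 0.26, edgeR adjusted p = 0.0417), and Hsph1 was then called higher in Smad4 KO, with 28.0 ± 3.00 CPM (SD, n = 3) in WT against 57.0 ± 24.2 CPM (SD, n = 4). In that fit 5.43% of 15020 genes were called. The library left out held the highest Hsph1 of all libraries. Leaving it out lowers WT by construction, so the call is no separate support for a difference. Without both water replicates 1, in a fit chosen after values were seen, the value was 1.16 (SE 0.26, edgeR adjusted p = 0.0293). In a fit of only the water libraries without WT water replicate 1 it was again 1.02 but was not called (SE 0.31, edgeR adjusted p = 0.217). Within libraries that share a name letter, Hsph1 differed by 1.09 (letter Z, 2 against 1 libraries, and 1.51 with the library labelled Smad4 KO water 1 left out) and by 0.76 (letter M, 2 against 1) on the log2 scale. What the letters stand for is not given in the sources used here.

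Dnajb1 lies on chromosome 8 from 86132074 to 86135801 (ENSMUSG00000005483). It was at 77.9, 62.7, 43.8 and 38.0 CPM in WT and at 57.4, 47.3, 43.7 and 55.5 CPM in Smad4 KO on water, and at 52.4, 70.0 and 53.6 CPM in WT and 60.4, 59.9 and 52.3 CPM in Smad4 KO after DSS. The 2 highest libraries, WT water replicate 1 and WT DSS replicate 2, were also the highest of their groups for Hspa1a and Hspa1b.

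Hspa8, on chromosome 9 from 40609067 to 40613283 (ENSMUSG00000015656), encodes the Hsp70 of unstressed cells, which folds new proteins and uncoats clathrin vesicles. It had 1663 ± 408 CPM (SD, n = 4) in WT and 1668 ± 382 CPM (SD, n = 4) in Smad4 KO on water, and 1525 ± 190 CPM (SD, n = 3) and 1704 ± 174 CPM (SD, n = 3) after DSS. WT water replicate 1 (2242 CPM) and Smad4 KO water replicate 4 (2156 CPM) were highest, followed by Smad4 KO DSS replicate 1 (1893 CPM), and the groups overlapped. A near-identical copy elsewhere in mm9 covers 87.9% of the Hspa8 transcript, and the gene models there had 0 counts in all 14 libraries. How reads shared with the copy were counted is not given in the sources used here. The 0 counts therefore do not show that Hspa8 lost no reads.

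Hspd1 and Hspe1 are divergent neighbours on chromosome 1, at 55134679 to 55145087 on the minus strand (ENSMUSG00000025980) and 55144976 to 55148151 on the plus strand (ENSMUSG00000073676), and their models overlap by 112 bases. Whether strand was used in the counting is not given in the sources used here. The 2 proteins form the Hsp60 and Hsp10 parts of 1 folding chamber in the mitochondrial matrix.

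Hspd1 was at 340.5, 279.7, 261 and 290.1 CPM in WT water replicates 1 to 4 and at 341, 499.7, 329.8 and 334 CPM in the libraries labelled Smad4 KO water 1 to 4. After DSS it was at 355, 319 and 384 CPM in WT and at 320.1, 321 and 340.3 CPM in Smad4 KO. Smad4 KO water replicate 2 stood above all others, and the other 3 Smad4 KO water libraries were near the highest WT water library.

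Hspe1 was at 164, 113, 123 and 137 CPM in WT water replicates 1 to 4 and at 103, 100.3, 68.0 and 165 CPM in the libraries labelled Smad4 KO water 1 to 4. After DSS it was at 115, 125 and 125 CPM in WT and at 119, 98.7 and 121 CPM in Smad4 KO. The lowest and the highest library were both in the Smad4 KO water group. A near-identical copy elsewhere in the genome covers 69.3% of its transcript. It overlaps the protein-coding gene Commd10, which had 303 to 901 counts over its whole model, with 901 in WT water replicate 1. Which of these came from the copy cannot be told.

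The pair did not keep a fixed ratio. Hspd1 had 2.08, 2.47, 2.13 and 2.12 counts for each Hspe1 count in WT on water, and 3.32, 4.98, 4.85 and 2.02 in the libraries labelled Smad4 KO water 1 to 4. After DSS the ratio was 3.09, 2.56 and 3.06 in WT and 2.70, 3.25 and 2.80 in Smad4 KO. The 4 WT water libraries and Smad4 KO water replicate 4 were the 5 lowest, and Smad4 KO water replicates 2 and 3 were the highest. The 3 libraries with over 20% mitochondrial counts, WT water replicates 3 and 4 and Smad4 KO water replicate 4, were among those 5, as were WT water replicates 1 and 2 with 8.23% and 6.42%. The part of RNA quality in the ratio was not tested.

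Hsp90ab1, on chromosome 17 from 45704724 to 45710220 (ENSMUSG00000023944), encodes the constitutive Hsp90. It was at 1499, 1429, 1314 and 1196 CPM in WT and at 1589, 1552, 1347 and 1380 CPM in Smad4 KO on water. After DSS it was at 1269, 1282 and 1399 CPM in WT and at 979, 1192 and 1109 CPM in Smad4 KO. The 3 Smad4 KO libraries after DSS were the 3 lowest of all 14 and overlapped neither WT after DSS nor Smad4 KO on water.

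Hsp90aa1, the inducible partner on chromosome 12 from 111928815 to 111940938 (ENSMUSG00000021270), had 244 ± 55.5 CPM (SD, n = 4) and 286 ± 41.5 CPM (SD, n = 4) in WT and Smad4 KO on water and 243 ± 8.17 CPM (SD, n = 3) and 247 ± 42.0 CPM (SD, n = 3) after DSS. Its highest value was in Smad4 KO water replicate 2, with 343 CPM, and its lowest in WT water replicate 2, with 183 CPM. Near-identical copies cover 84.4% of its transcript, and the pseudogene model Gm12346 there had 15 to 101 counts. The copies also overlap the protein-coding gene Ssh2, which had 78 to 1201 counts over its whole model. Hsp90ab1 had between 3.34 (Smad4 KO DSS replicate 1) and 7.82 (WT water replicate 2) counts for each Hsp90aa1 count.

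Hspb1, on chromosome 5 from 136363789 to 136365433 (ENSMUSG00000004951), encodes Hsp27 (Hsp25 in mice), a small heat shock protein that binds unfolded chains and actin. It was barely detected, with 0 to 48 counts per library. The highest level was 2.11 CPM in the library labelled Smad4 KO water 1, and WT water replicate 4 had no count, which allows up to 0.321 CPM at a limit of 3 counts. Stretches that make up 86% of its transcript are near-identical elsewhere in mm9, and how reads shared with them were counted is not given in the sources used here.

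After DSS, none of the 10 genes differed between Smad4 KO and WT by the edgeR test (all adjusted p = 0.999). This comparison asks what the loss of Smad4 does in the injured epithelium. Of all tested genes 0.0132% (2 genes) were called, and 670 genes, none of them among the 10, had an unadjusted p under 0.05. The log2 fold changes were 0.16 (SE 0.23) for Hspa8, -0.03 (SE 0.22) for Dnajb1, 0.02 (SE 0.19) for Hsp90aa1, -0.11 for Hspd1 (SE 0.17) and Hspe1 (SE 0.23) and -0.15 (SE 0.44) for Hsph1. Those of Hspa1a, -0.31 (SE 1.06), Hspa1b, -0.37 (SE 0.78), and Hspb1, 0.26 (SE 0.84), had wide errors. Hsp90ab1 was at -0.27 (SE 0.16), and the groups did not overlap, as was so in the same direction for 11.4% of all tested genes. Among libraries of name letter D alone, which hold all 3 Smad4 KO and 2 WT libraries, Hsp90ab1 was at -0.23. The median of the 10 was -0.11 and that of all tested genes -0.00.

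On water, none of the 10 genes was called between Smad4 KO and WT with all libraries, where 8.44% of tested genes were. The 1 member with an unadjusted edgeR p under 0.05, as for 4436 genes in all, was Hspd1, at 0.36 (SE 0.15, adjusted p = 0.123), and it was at 0.40 (adjusted p = 0.12) with the library labelled Smad4 KO water 1 left out. Groups that did not overlap, in either direction, were found for 10.4% of tested genes and for no member. Within the name letters, Hspd1 was at 0.66 (Z, and 0.94 with that library left out) and 0.19 (M). Fibroblast markers summed to 6.19 to 10.8 CPM in WT and 12.1 to 35.9 CPM in Smad4 KO on water, and to 6.76 to 11.6 and 15.9 to 20.9 CPM after DSS, and their part in the comparisons was not tested. Mitochondrial counts took 6.42% to 32.8% in WT on water, with 30.6% and 32.8% in replicates 3 and 4. They took 4.83% to 21.4% in Smad4 KO on water, and their part was not tested either.

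Hspa1a and Hspa1b were both at -1.20 on water (SE 0.87 and 0.67, edgeR adjusted p = 0.375 and 0.246), and this direction rested on WT water replicate 1. Without it they were at 0.59 and 0.23 (edgeR adjusted p = 0.642 and 0.802), with means in WT of 1.75 and 7.97 CPM in place of 6.11 and 21.3 CPM. Without Smad4 KO water replicate 4, in contrast, Hspa1b was called lower in Smad4 KO (-1.96, SE 0.68, edgeR adjusted p = 0.0436), as was Hspe1 (-0.56, SE 0.16, edgeR adjusted p = 0.019). In that fit 27.3% of 15043 genes were called. The library left out was the highest Smad4 KO water library for Hspa1b (21.4 CPM) and the highest of all for Hspe1 (165 CPM). Leaving it out lowers Smad4 KO by construction, so these calls are no separate support for a difference. WT water replicate 1, with Hspa1b at 61.2 CPM, was kept in that fit. With all libraries Hspe1 was at -0.30 (SE 0.20), and within the name letters it was at -0.27 (Z) and -0.37 (M), while Hspa1b was at -0.26 (Z, and -0.60 with the library labelled Smad4 KO water 1 left out) and 0.85 (M). The other members had 1.02 (Hspb1, SE 0.73), 0.23 (Hsp90aa1, SE 0.17), 0.11 (Hsp90ab1, SE 0.13), 0.00 (Hspa8, SE 0.20) and -0.13 (Dnajb1, SE 0.19), and leaving out the library labelled Smad4 KO water 1 put Hspb1 at 0.56, Hspa1a at -1.05 and Hspa1b at -1.08.

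DSS against water in WT called no gene with edgeR (0% of 15127), although 3174 genes had an unadjusted p under 0.05 and DESeq2 called 851, none of them a member. No member was among the former. Groups that did not overlap were found for 24.4% of tested genes and for no member. Hspa1a was at -2.10 (SE 1.00, edgeR adjusted p = 0.243) and Hspa1b at -1.24 (SE 0.74, edgeR adjusted p = 0.341). Without WT water replicate 1 they were at -0.31 and 0.18, and Hsph1 changed from -0.16 to 0.57 (edgeR adjusted p = 0.238). Within name letter D, which holds WT water replicates 1 and 2, Hspa1a was at -1.95 and Hsph1 at -0.31, and within Z, with 1 library on each side, they were at -0.33 and 0.65. Mitochondrial counts took 6.42% to 32.8% in WT on water and 4.54% to 6.87% after DSS, and their part was not tested. Hspd1 was at 0.27 (SE 0.16), and the other 6 members were between -0.14 and 0.07.

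DSS against water in Smad4 KO called 10 genes (0.0661%) and no member. Hsp90ab1 was at -0.42 (SE 0.15, edgeR adjusted p = 0.481), and was the 1 member with an unadjusted p under 0.05, as for 1271 genes in all. Its groups did not overlap, as was so in this direction for 4.28% of tested genes, and with the library labelled Smad4 KO water 1 left out it was at -0.38 (edgeR adjusted p = 0.54). Hsph1 was at -0.60 (SE 0.42), Hspa1a at -1.21 (SE 1.00), Hspb1 at -0.82 (SE 0.78) and Hspa1b at -0.42 (SE 0.73), and the remaining 5 were between -0.21 and 0.17. Without that same library, in which Hspb1 was highest, Hspb1 was at -0.35, Hsph1 at -0.74, Hspa1a at -1.36 and Hspa1b at -0.54. No name letter holds libraries of both groups, so there are no values within a letter. With the letter as a block, whose effect is then set by the other groups, Hsp90ab1 was at -0.54 (SE 0.20, edgeR adjusted p = 0.913), Hspa1a at -3.87 (SE 1.18), Hspa1b at -2.14 (SE 0.88) and Hsph1 at -1.35 (SE 0.57), and no member was called. In those other groups letter D includes WT water replicate 1, the highest library for Hspa1a, Hspa1b and Hsph1. Its part in these values was not tested.

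**Figure D4:**
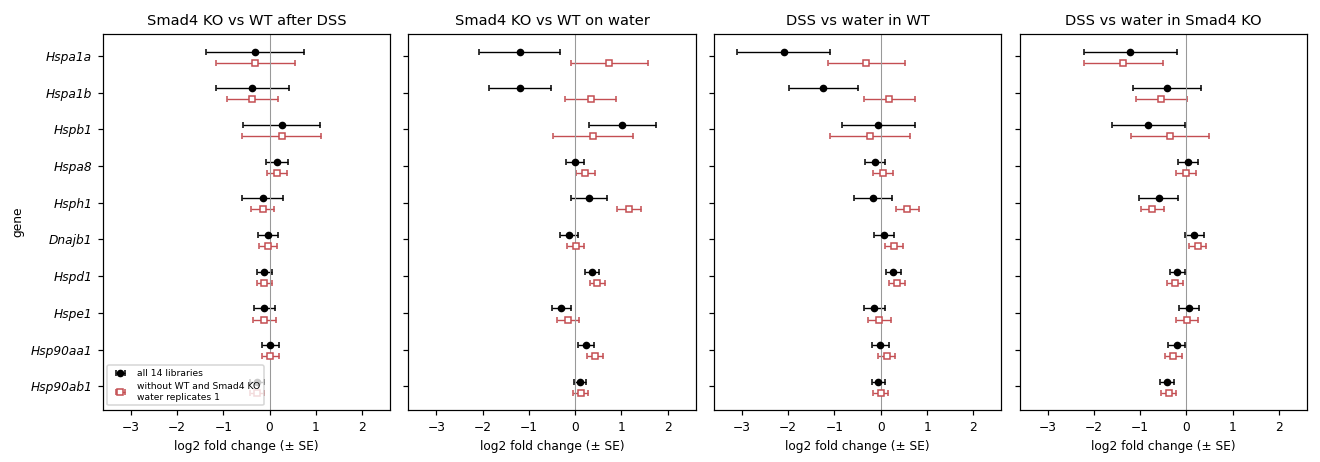
log2 fold change ± SE (edgeR) of the 10 genes in 4 comparisons, in black with all 14 libraries and as red open squares without both water replicates 1. The black and red values of Hspa1a, Hspa1b and Hsph1 lie far apart in the comparisons that use WT on water (Hspa1a -2.10 against -0.31 for DSS in WT), whereas the black values of Hspa8, Dnajb1, Hspd1, Hspe1, Hsp90aa1 and Hsp90ab1 lie between -0.42 and 0.36.

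The response to DSS was not called different between the genotypes for any member, with 0.00661% of tested genes (1 gene) called. The difference, Smad4 KO response minus WT response, ran from -0.76 (Hspb1) to 0.89 (Hspa1a). Without WT water replicate 1 Hspa1a was at -0.90, Hspa1b at -0.60 and Hsph1 at -1.17, and with the library labelled Smad4 KO water 1 left out Hspb1 was at -0.29 and Hspa1a at 0.74. The member with the lowest adjusted p was Hspd1, at -0.47 (SE 0.23, edgeR adjusted p = 0.645), whose level was 293 ± 34.0 CPM (SD, n = 4) in WT on water and 352 ± 32.4 CPM (SD, n = 3) after DSS, and 376 ± 82.5 CPM (SD, n = 4) and 327 ± 11.4 CPM (SD, n = 3) in Smad4 KO.

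Libraries on water spread more than those after DSS. The coefficient of variation was higher in WT on water than in WT after DSS for 10 of 10 members and for 78.7% of tested genes, and higher in Smad4 KO on water than after DSS for 8 of 10 members and for 84.1% of tested genes (8 members and 82.1% with the library labelled Smad4 KO water 1 left out). Shares near those of all genes are no result about the members. The water libraries come from name letters D, Z and M and the DSS libraries from D and Z only.

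The partners of these proteins were described from lists of other chaperones, and calls were found only for Smad4 KO against WT on water. There, 9 of the 97 listed genes that were tested (9.28%) were called, near the 8.44% of all tested genes, so that the number of calls is no result about these lists. Of 8 tested genes of the Hsp70 and Hsp110 families (9 listed) 2 rose. Hspa4l, an Hsp110 protein, went from 44.4 ± 10.1 to 86.9 ± 14.7 CPM (SD, n = 4 and 4; log2 fold change 0.96, SE 0.16, edgeR adjusted p = 0.0191). Hspa4, its paralogue Apg-2, went from 148 ± 19.7 to 207 ± 22.3 CPM (0.48, SE 0.12, adjusted p = 0.0344). The 2 had adjusted p = 0.00822 and 0.0356 with the library labelled Smad4 KO water 1 left out.

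Of 16 J-domain genes 1 rose, Dnajb14 (0.40, SE 0.12, adjusted p = 0.0478), which was not called without that library (adjusted p = 0.0644) or without WT water replicate 1 (adjusted p = 0.07). Of 19 cochaperones 1 fell, Cdc37, which hands kinases to Hsp90, from 192 ± 10.9 to 137 ± 20.6 CPM (-0.49, SE 0.12, adjusted p = 0.0309). Of 12 mitochondrial chaperones and proteases, the protease Yme1l1 rose (0.59, SE 0.16, adjusted p = 0.0411) and Clpp, the matrix peptidase, fell (-0.77, SE 0.22, adjusted p = 0.0421), and Clpp was not called with the library labelled Smad4 KO water 1 left out (adjusted p = 0.0509). Neither Yme1l1 (adjusted p = 0.058) nor Clpp (adjusted p = 0.0554) was called without WT water replicate 1. Of 13 chaperones of the endoplasmic reticulum 3 rose, Hsp90b1, Dnajc3 and Canx, by 0.53, 0.54 and 0.59. Without WT water replicate 1, 7 of them were called (Hspa5, Hyou1, Pdia4 and Dnajb9 in addition), and with the library labelled Smad4 KO water 1 left out 5 were (Hspa5 and Pdia4 in addition). The cochaperone Bag1, which was lower in Smad4 KO (log2 fold change -0.78 with all libraries), was also called without WT water replicate 1 (adjusted p = 0.0471). None of the 9 genes called with all libraries was called in an edgeR fit of only the water libraries (adjusted p = 0.149 to 0.174).

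No call was made among 13 genes of the cytosolic chaperonin and prefoldin, 2 of 8 other small heat shock genes that were tested, and 12 early response genes. The same held for 4 tested of 5 genes in a list for heat shock factors. They were Hsf1, Hsf2, Hsf4 and Hsbp1, which encodes a protein that binds a factor. Hsf1, the factor that drives the heat shock genes, was at -0.22 (SE 0.13) in Smad4 KO on water and at -0.24 (SE 0.15) after DSS in WT. Hspa9, the mitochondrial Hsp70, was at 0.33 (SE 0.12, edgeR adjusted p = 0.0963) in Smad4 KO on water. The median of the lists on water ran from -0.18 for the heat shock factors with Hsbp1 to 0.49 for the chaperones of the endoplasmic reticulum. It was 0.06 for the 10 members and -0.01 for all tested genes.

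Among 11557 other genes with a mean of at least 50 counts, 5 followed the mean profile of the members (z-scored log2 CPM) most closely over the 14 libraries. They were Wrnip1 (r = 0.85), Stip1 (0.83), the Hsp70 and Hsp90 adaptor Hop, Dnaja1 (0.80), an Hsp40, Tppp (0.78) and Pole4 (0.78). Without WT water replicate 1 the same genes had r = 0.75, 0.79, 0.79, 0.65 and 0.80. Among the members, Hspa8 was most like Hspa1a (0.79), Hsph1 like Hspa8 (0.75), Dnajb1 like Hspa1b (0.73), Hsp90aa1 like Hsph1 (0.73), Hspd1 like Hsp90aa1 (0.65), Hspe1 like Hspa1b (0.65) and Hsp90ab1 like Hspb1 (0.42). Hspd1 was thus closer to a cytosolic gene than to its mitochondrial partner. The median over the 45 pairs was 0.33, with 37 positive, and 0.27, with 33 positive, without WT water replicate 1. These correlations are over libraries that share depth and normalization and carry no test.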

How the data were processed

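Colon epithelium of WT and Smad4 KO mice on water or after 2.5% DSS (14 libraries) had been sequenced as 150-bp paired-end poly(A) RNA after selection of RNA with a RIN above 4. The authors used Hisat2 (v2.0.5) for alignment to mm9 and featureCounts (v1.5.0-p3) for counting, and deposited counts for 37680 genes. The study's data statement describes them as normalized, but the table holds whole numbers whose totals differ between libraries, and they were used as raw counts. No library had a count for 14001 of them. Libraries were grouped by their labels. Total counts of 12882827 to 26087231 set the precision, and the limit for 0 counts covers counting error only.

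After a filter of 10 or more counts in 3 or more libraries, 15127 genes entered edgeR 4.0.16 (TMM, quasi-likelihood test, all libraries in 1 model) in R 4.3.3, with Benjamini-Hochberg adjustment at 0.05, which was tested on simulated data first. The p-values are two-sided. The authors tested pairs of groups with DESeq2. Alternatives were DESeq2 1.42.0, fits of only the 2 groups compared, other size factors, no filter, blocks of replicate number and name letter, and each library left out. Levels per kb used GENCODE M1 exons, promoters came from RefSeq, and copies were searched with blastn 2.17.0. Correlations used log2(CPM + 0.5).

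The members, lists and tests were chosen with earlier results of these data known. All members are named. Of each list, up to 3 called genes with the smallest p are named, or up to 2 with the highest counts, and 5 genes most like the members. Dnaja4, Hspb7, Atf3, Fosb, Pfdn2, Vbp1, Sdf2l1, Hyou1, Dnajb9 and Bag1, and the water values without 1 library for lists, letters and spread, were added after values were seen.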

Additional observations from a re-analysis of the deposited data

Results flagged for a closer look

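Of 20 groups of 4 libraries that were examined (10 genes on water in 2 genotypes), 5 held a library whose distance to the nearest other took up an unusually large part of the group's range by Dixon's criterion. In independent, normally distributed groups chance gives this in about 1 in 20. These groups are not independent, since 3 of the 5 involve the same library and Hspa1a and Hspa1b share near-identical sequence, so the 2 rates cannot be compared. WT water replicate 1 was set apart for Hspa1a at 19.2 CPM, for Hspa1b at 61.2 CPM and for Hsph1 at 100.4 CPM. In the group labelled Smad4 KO on water, replicate 4 was set apart for Hspa1b at 21.4 CPM and replicate 2 for Hspd1 at 499.7 CPM. The groups of 3 libraries after DSS are too small for this criterion.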

How the results depend on the processing

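No member was called in any fit, except for Smad4 KO against WT on water without WT water replicate 1 (1 member), without Smad4 KO water replicate 4 (2) and without both water replicates 1 (1). In each of these fits a library left out was the highest of its group for the members called. Of 640 values of the members under alternatives, 576 kept their direction and side of the threshold, 60 changed sign and 4 passed the threshold. The cause was not tested. Leaving out each library, members called ran from 0 to 2 on water and stayed at 0 elsewhere, and genes called from 0 to 8 (Smad4 KO against WT after DSS), 4 to 4104 (on water), 0 to 537 (DSS in WT), 3 to 11 (DSS in Smad4 KO) and 1 to 6 (difference of responses).

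Genes called for Smad4 KO against WT after DSS (2) became 51 with DESeq2, 114 in edgeR and 492 in DESeq2 with only 2 groups, and 7 without a filter. On water (1276) they became 2659 with DESeq2, 1 and 796 with only 2 groups, and 2030 with a block of name letter. For DSS in WT (0) they became 851 with DESeq2, 1789 in DESeq2 with 2 groups, 138 without a filter and 1 with the letter block. For DSS in Smad4 KO (10) they became 70 with either DESeq2 fit, 1 in edgeR with 2 groups and 1 with the letter block. For the difference (1) they became 8 with DESeq2 and 2 without a filter. A fit of only 2 groups was not run for the difference, which needs all 4.

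With replicate number as a block (replicate block), 2977 genes were called on water and 6 for DSS in Smad4 KO, no member was called, and for DSS in WT Hsph1 (0.01) and Hsp90aa1 (0.03) changed sign. Of 19 same-numbered pairs of libraries 2 had a correlation over 0.1 (-0.11 to 0.42). The labels do not say whether equal numbers mark a pair, and these correlations cannot settle it.

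The letter block changed the sign of Hspa1a (0.90), Hspa1b (0.06) and Dnajb1 (0.21) on water, of Hsp90aa1 (0.00) for DSS in WT, and of Hspa8 (-0.34) and Dnajb1 (-0.41) for DSS in Smad4 KO. Without a filter Hsp90aa1 for DSS in WT was at 0.01. Fits with 2 groups gave 13 genes on water and 1 for DSS in Smad4 KO leaving out the library labelled Smad4 KO water 1, where Hspa8 was at -0.02.

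Chosen after seeing the data were 2-group fits without WT water replicate 1 (1 gene on water, with Hspa1a 0.60, Hspa1b 0.23 and Dnajb1 0.08; for DSS in WT Hspa1b 0.17, Hspa8 0.05, Hsph1 0.57 and Hsp90aa1 0.13) and fits without both water replicates 1. The latter called 4 genes after DSS, 706 on water, 3 for DSS in WT and 5 for DSS in Smad4 KO, with Hspa1a 0.74, Hspa1b 0.34, Hspa8 0.22 and Dnajb1 0.01 on water, Hspa1b 0.18, Hspa8 0.05, Hsph1 0.57, Hsp90aa1 0.13 and Hsp90ab1 0.00 for DSS in WT, and Hspa8 -0.01 for DSS in Smad4 KO.

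Leaving out single libraries changed signs within these ranges of log2 fold change. After DSS they were -0.82 to 0.55 for Hspa1a, -0.66 to 0.21 for Hspa1b, -0.10 to 0.67 for Hspb1, -0.10 to 0.12 for Dnajb1 and -0.12 to 0.12 for Hsp90aa1. On water they were -2.20 to 0.59 for Hspa1a, -1.96 to 0.23 for Hspa1b, -0.13 to 0.18 for Hspa8 and -0.27 to 0.08 for Dnajb1. For DSS in WT they were -1.82 to 0.18 for Hspa1b, -0.46 to 0.36 for Hspb1, -0.23 to 0.05 for Hspa8, -0.35 to 0.57 for Hsph1, -0.07 to 0.28 for Dnajb1, -0.11 to 0.13 for Hsp90aa1 and -0.11 to 0.00 for Hsp90ab1. For DSS in Smad4 KO they were -0.66 to 0.36 for Hspa1b, -0.08 to 0.18 for Hspa8 and -0.12 to 0.32 for Hspe1. Counts were lowest for Hspb1 (0 to 48) and Hspa1a (10 to 518). The part of depth and of reads shared with near-identical sequence in these low counts was not tested.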

Other observations

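In WT water replicate 1, the library with the highest Hspa1a and Hspa1b, 4 of 19 cochaperones were also the highest of the 14 libraries. They were Stip1 (141 CPM against a median of 102 in the other 13), Ahsa1, an activator of Hsp90 (103 against 80.4), Ahsa2 (30.4 against 20.8) and Fkbp5 (95.7 against 67.4). Of 16 J-domain genes 1 was highest there, Dnaja4, an Hsp40 gene, at 3.96 CPM against 1.91. Dnaja1 was second highest, at 196 CPM against 127. Hspb7, a small heat shock gene with a mean of 5.07 counts, was at 0.814 CPM, with 0.792 CPM in the next library. The factor gene Hsf1 (43.5 CPM against 34.5) was also highest there. Of 13 chaperonin and prefoldin genes 2 were, Pfdn2 (37.2 against 29.1) and Vbp1 (37.4 against 29.6). None of 8 other genes of the Hsp70 and Hsp110 families was. The median ratio to the other libraries was 0.893 for those 8 and 1.00 for the J-domain genes. It was 1.05 for the chaperonin and prefoldin genes and 1.18 for the cochaperones. Among all tested genes with a mean of at least 50 counts, 3.75% were highest there. None of the 13 chaperones of the endoplasmic reticulum and none of the 12 mitochondrial chaperones and proteases was highest there, with Sdf2l1 of the former the second highest (78.6 CPM against 49.4). The library has no replicate of its own, and these values carry no test.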
